A study of Mus musculus with 6 samples.

Results

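The genes described are 10 members of the MHC class I presentation pathway, chosen by name from the deposited table after the difference between the genotypes had been seen in these same retinae. They are the heavy chains H2-K1, H2-D1 and H2-T23, the light chain B2m, the transporter genes Tap1 and Tap2, the loading chaperone Tapbp, the immunoproteasome subunits Psmb8 and Psmb9, and the transactivator Nlrc5. All 10 were found among the 24062 genes of the table and all 10 were among the 16904 genes tested. Because their values in this comparison selected them, their levels and fold changes are given as a description without a test, and tests are kept for genes outside the list.

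RNA-seq was performed on whole retinae of C57BL/6 mice (C57BL/6N in the study's methods) at postnatal day 21, with 3 Rb1/p107/Hells TKO retinae and 3 Rb1/p107 DKO retinae. The DKO retinae were Chx10-Cre Rb1 lox/lox p107-/-, a mouse model of retinoblastoma, and the TKO retinae carried Hells lox/lox in addition, so that both groups lacked p107 and carried the Cre. Chx10-Cre acts in early retinal progenitors in a mosaic pattern, and cells that did not recombine, as well as vessels and immune cells that do not arise from these progenitors, remain in each retina. The comparison asks which early expression differences accompany loss of Hells, a chromatin remodeler of the SNF2 family, in retinae in which Rb1 and p107 are targeted.

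Class I molecules display short peptides from inside the cell on its surface, where cytotoxic T cells and natural killer cells read them. The proteasome cuts proteins into peptides, TAP carries them into the endoplasmic reticulum, tapasin holds the transporter beside an empty heavy chain and B2m pair, and the loaded complex moves to the surface. Interferons raise the whole pathway, with IRF1 and NLRC5 among the factors involved, and replace catalytic proteasome subunits by inducible ones, whereas resting retinal neurons are known for low class I levels and microglia and vessels for higher ones.

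Total counts lay between 10343907 and 14203098 per retina. Hells, the targeted gene, was lower in TKO (70.9 ± 11.5 normalized counts, SD, n = 3) than in DKO (532 ± 142, SD, n = 3), and its log2 fold change was -2.91 (adjusted p = 0.00359, edgeR's quasi-likelihood test). Rb1, targeted in both groups, was counted at 748 ± 66.0 in TKO and 591 ± 23.5 in DKO (0.34, adjusted p = 0.0388 in edgeR, and up to 0.129 with a retina left out), and Rbl1, which encodes p107, at 20.3 ± 7.02 and 18.6 ± 4.87 (0.13, adjusted p = 0.839). Counts over a whole gene include exons outside a deletion and cells that did not recombine. Markers of dividing cells (7 of 7) were called lower and rod markers (10 of 10) were called higher in TKO. Over all genes tested, 4.38% were called lower and 1.97% higher. Of the other lists, 3 of 7 lens markers, 2 of 7 cone markers and 1 of 6 markers of the pigment epithelium were called higher, and of 7 Muller glia markers 1 was called higher (Glul) and 1 lower (Sox9). The lens markers summed to 44.3, 238 and 37.4 CPM in the TKO retinae and to between 8.19 and 8.33 in DKO. The part of these differences in the members' levels was not tested. In bulk samples, fewer cells of a type and less RNA per cell cannot be told apart. By Xist and Y-linked genes, TKO replicate 1 and DKO replicates 1 and 2 were male and TKO replicates 2 and 3 and DKO replicate 3 were female, so sex was not balanced between the groups.

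The class I heavy chain and light chain promoters are known to share a compact module, in which an X2 box and a Y box at a fixed distance are held by the factors through which NLRC5 acts. The sequences below show these boxes for the 3 members in which the pair was found. The pair was searched as the letters TGACG followed after 15 to 25 bases by ATTGG, on either strand. Other parts of the module were not searched. The capitals mark those letters, read 5′ to 3′ on the strand of the gene from the RefSeq promoter table (GRCm38.p6).
B2m, chr2:122147609-122147638, plus strand: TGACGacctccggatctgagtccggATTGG
H2-K1, chr17:34000359-34000388, minus strand: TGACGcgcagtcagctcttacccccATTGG
H2-D1, chr17:35262993-35263022, plus strand: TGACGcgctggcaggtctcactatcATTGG
The spacing was 20 bases in each of the 3 genes. The pair was present within 250 bases before the start in 3 of the 8 members with an entry (entries matched all members except Tap2 and Nlrc5), and in 0.429% of the 27025 genes of the table. Among the 49 other pathway genes with an entry it was present in H2-M3 and Jak1.

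Longer stretches are given for the light chain and for H2-K1, because they hold the other motifs of class I promoters beside the module. Here the capitals also mark the interferon-response core GAAANNGAAA, which was found in B2m and, on the opposite strand, in H2-T23, and the kappaB letters GGGNNTTCCC, which were found in H2-K1 and H2-D1. These are the 150 bases before the annotated start, the first from chr2:122147537-122147686 on the plus strand and the second from chr17:34000348-34000497 on the minus strand.
B2m: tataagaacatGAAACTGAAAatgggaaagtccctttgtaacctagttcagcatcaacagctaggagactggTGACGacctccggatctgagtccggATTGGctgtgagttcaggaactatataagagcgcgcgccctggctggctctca
H2-K1: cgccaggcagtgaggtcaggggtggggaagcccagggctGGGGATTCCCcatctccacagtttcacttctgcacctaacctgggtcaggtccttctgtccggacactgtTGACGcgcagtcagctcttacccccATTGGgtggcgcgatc
Within 250 bases before the start, the interferon-response core was present in 3.46% and the kappaB letters in 1.75% of the 27025 genes with an entry. The letters TTCNNNGAA, known from gamma-interferon response elements, were present in Psmb8 alone among the members and in 8.13% of those genes. Among the pathway genes they were present in 6, including Irf1 and Ifnar2. A match describes the letters and is not evidence of binding, and the motifs were chosen after the sequences had been seen. Only these exact letters were searched, so the lack of a match does not show that a promoter lacks such an element.

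The heavy chains bind the peptide and contact the T cell receptor. H2-K1 (chr17:33996017-34000347) and H2-D1 (chr17:35262730-35267499) encode the classical molecules Kb and Db of this strain, and H2-T23 (chr17:36029773-36032855) encodes Qa-1, a nonclassical molecule read by natural killer cells. H2-K1 was counted at 657, 721 and 768 normalized counts in the 3 TKO retinae and at 1687, 1846 and 2582 in the 3 DKO retinae. Every TKO retina was therefore below every DKO retina, and DKO replicate 3 stood highest. The means were 715 ± 55.8 and 2038 ± 478 (SD, n = 3 each), and the log2 fold change was -1.51 (SE 0.159). H2-D1 was counted at 403, 395 and 410 in TKO and at 726, 805 and 972 in DKO. The TKO retinae were close together (402 ± 7.60) and the DKO retinae spread more widely (834 ± 126), with a log2 fold change of -1.05 (SE 0.117). H2-T23 was counted at 84.9, 91.6 and 119 in TKO and at 240.0, 280.2 and 281 in DKO. Its groups did not overlap, and its log2 fold change was -1.44 (SE 0.164).

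The ratio of the classical heavy chains also differed between the genotypes. Per kilobase of annotated exon, H2-K1 stood at 143%, 160.3% and 165% of H2-D1 in the TKO retinae and at 204%, 201% and 233% in the DKO retinae, which is a description of members chosen from these values. B2m, the chain that stabilises every class I molecule (chr2:122147686-122153083), was counted at 870.4, 982 and 1089 in TKO and at 2627, 2934 and 2974 in DKO. It had the most counts of all 10 members in each retina, its groups were far apart, and its log2 fold change was -1.54 (SE 0.103), the smallest standard error of the list. B2m stood at 215% ± 9.12 of the per-kilobase sum of H2-K1, H2-D1 and H2-Q4 in TKO and at 246% ± 34.9 in DKO, so that this ratio overlapped between the groups (205 to 223% against 208 to 276%).

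**Figure D1:**
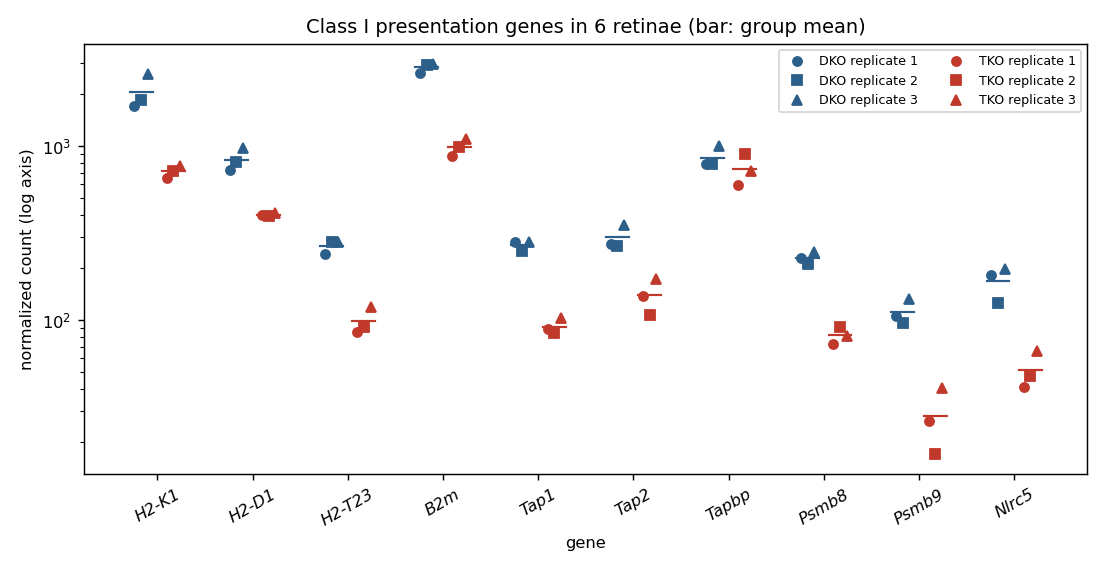
Normalized counts of the 10 members on a logarithmic axis, with 1 point for each retina, shape for the replicate, blue for DKO and red for TKO, and a bar for the mean of 3. The DKO points lie above the TKO points for 9 genes, and for Tapbp the highest TKO retina (903) lies above DKO retinae at 788 and 785.

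TAP, the heterodimer of Tap1 and Tap2, pumps cytosolic peptides into the endoplasmic reticulum. Tap1 (chr17:34187553-34197225) was counted at 88.3, 84.2 and 102 in TKO and at 280, 248 and 281 in DKO. Its log2 fold change was -1.56 (SE 0.139), and no TKO retina came near the lowest DKO retina. Tap2 (chr17:34203527-34216321) was counted at 136, 107.4 and 172 in TKO and at 273, 267 and 353 in DKO. Its groups did not overlap either, but its log2 fold change was smaller, at -1.11 (SE 0.196), and leaving out 1 retina at a time moved it between -1.28 and -0.95. Per kilobase, Tap2 stood at 218% ± 30.3 of Tap1 in TKO and at 160% ± 20.4 in DKO (SD, n = 3 each).

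Tapasin, the product of Tapbp (chr17:33915899-33929292), bridges TAP and the empty heavy chain and edits the peptide. Tapbp was counted at 599, 903 and 719 in TKO and at 788, 785 and 998 in DKO. It is the member whose groups overlapped: TKO replicate 2 was above DKO replicates 1 and 2. The means were 740.3 ± 153 and 857 ± 122, the log2 fold change was -0.21 (SE 0.159), and this value lay between -0.38 and -0.079 when each retina was left out in turn. Tapbp per kilobase stood at 1236% ± 332 of Tap1 in TKO and at 480% ± 54.9 in DKO, so that the chaperone and the transporter it bridges did not move in proportion. Of the exon windows of 100 bases in Tapbp, 14.8% also occur in another annotated transcript, nearly all in Gm19412, and the counting of such reads could affect its level.

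The immunoproteasome subunits Psmb8 and Psmb9 replace the constitutive catalytic subunits Psmb5 and Psmb6 in cells exposed to interferon and in immune cells, and favour peptides that fit class I molecules. Psmb8 (chr17:34197721-34201454) was counted at 72.2, 91.6 and 81.0 in TKO and at 227, 210.1 and 245 in DKO. Its log2 fold change was -1.48 (SE 0.151). Psmb9 (chr17:34181987-34187764) was counted at 26.4, 16.8 and 40.5 in TKO and at 105, 96.3 and 132 in DKO. The Psmb9 difference was the largest of the 10 members, with a log2 fold change of -2.004 (SE 0.310), and also the least precise, since it rests on 16 to 33 raw counts in each TKO retina. The value was -1.74 without TKO replicate 2 and -2.36 without TKO replicate 3.

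**Figure D2:**
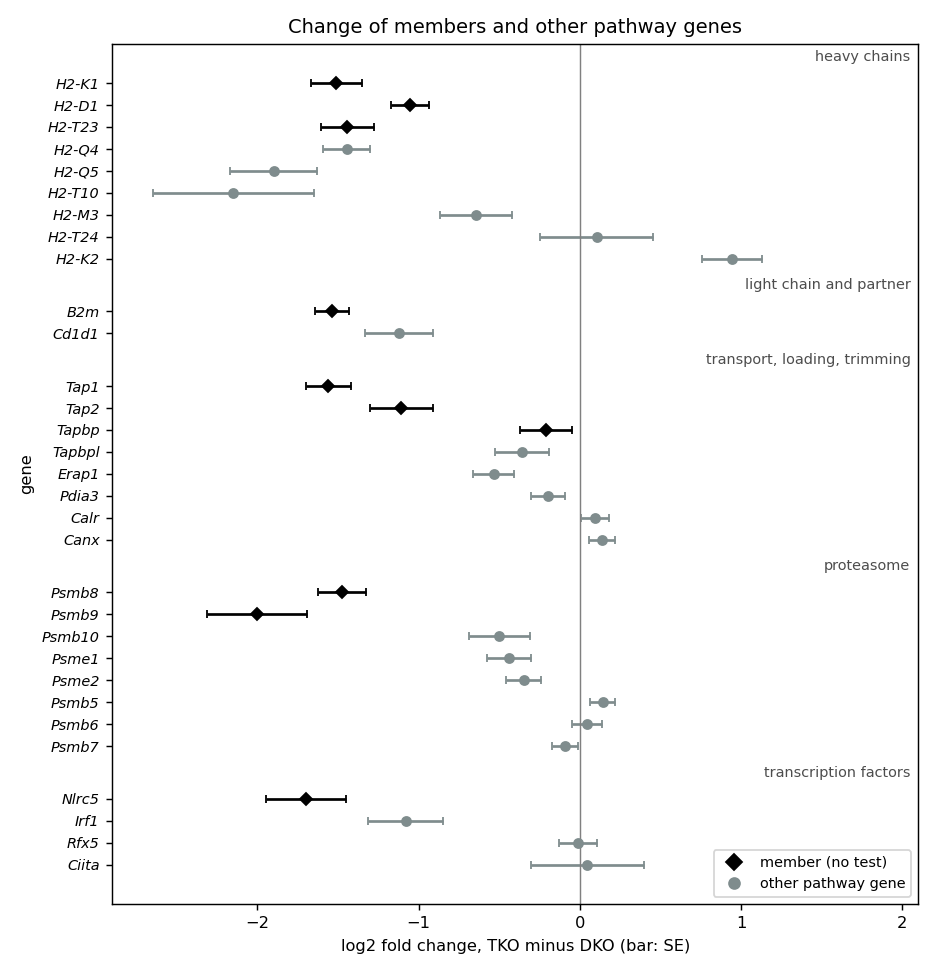
Log2 fold change of TKO relative to DKO on the horizontal axis, with the standard error as the bar, for the 10 members (black diamonds, no test) and for named pathway genes (grey points), grouped by role. Members lie between -2.004 and -0.21, whereas Psmb5, Psmb6 and Psmb7 lie between -0.09 and 0.14.

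The constitutive core was read beside these members, which had been selected on this contrast. Of the 14 genes of the constitutive core tested, 0 were called in either direction by edgeR or by DESeq2 and 1 had an unadjusted p below 0.05. Their log2 fold changes ran from -0.19 to 0.14, with Psmb5 at 0.14 (adjusted p = 0.249), Psmb6 at 0.04 (adjusted p = 0.773) and Psmb7 at -0.09 (adjusted p = 0.471) in edgeR's test; Psmb5 and Psmb6 turned slightly negative when only total counts were used for scaling. Per kilobase, Psmb8 stood at 2.94% ± 0.389 of Psmb5 in TKO and at 9.01% ± 0.644 in DKO. Psmb9 stood at 1.03% ± 0.503 of Psmb6 in TKO and at 4.15% ± 0.567 in DKO. By this measure the inducible mRNA was below its constitutive counterpart in both genotypes, and the fraction was smaller in TKO. The size of the fraction depends on the lengths, which were 3381 bases for Psmb8, 899 for Psmb5, 3660 for Psmb9 and 1872 for Psmb6. Before division by length, DKO retinae averaged 227 normalized counts for Psmb8 against 671 for Psmb5. For Psmb9 the DKO mean was 111, against 1371 for Psmb6. The third inducible catalytic subunit, Psmb10, which is not a member, stood at 23.4% ± 5.04 of Psmb7 in TKO and at 31.0% ± 6.65 in DKO.

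**Figure D3:**
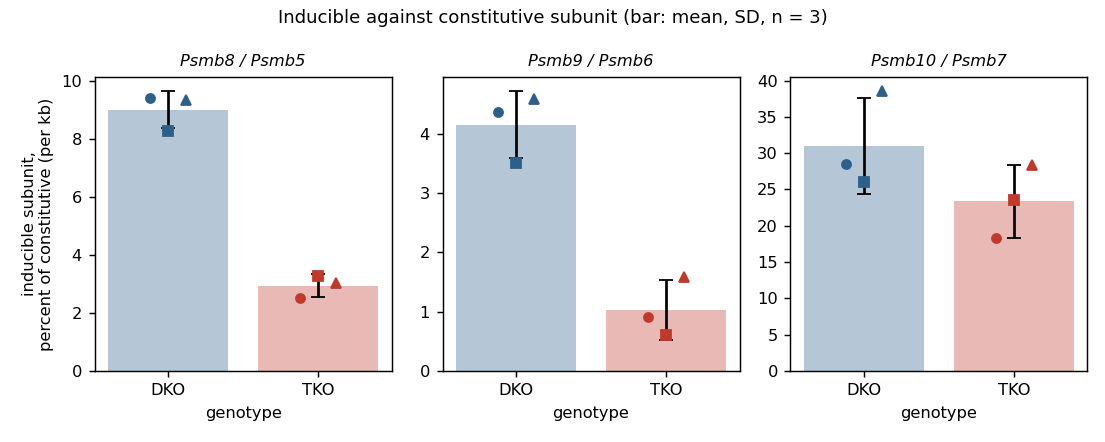
Inducible subunit as a percent of the constitutive subunit it replaces, per kilobase of exon, for 3 pairs, with points for the retinae, bars for the mean and error bars for the SD (n = 3). Psmb8 and Psmb9 ratios do not overlap between the genotypes, whereas the highest TKO retina for Psmb10 (28.3%) lies above the lowest DKO retina (26.0%).

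NLRC5 is the transactivator of class I genes and acts through factors that bind their promoters, including those of the boxes printed above. Nlrc5 (chr8:94434356-94527272) was counted at 41.3, 47.4 and 66.3 in TKO and at 182, 125 and 196 in DKO. All TKO retinae were below all DKO retinae, and the log2 fold change was -1.70 (SE 0.248). It had the lowest mean level per kilobase of the members in both genotypes.

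Across the list, 9 of the 10 members had groups that did not overlap, each lower in TKO, and the median log2 fold change was -1.49, against a median of -0.01 over all 16904 genes. Among all genes tested, 20.6% had groups that did not overlap with TKO lower, and 18% with TKO higher. Since the members were selected on this contrast, nothing is read from their count. The 9 values ran from -2.004 to -1.05.

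The order of the levels was read per kilobase of exon, in CPM, that is, counts scaled to library size. In DKO it ran from B2m (262 ± 17.5) through H2-K1 (54.8 ± 12.9), H2-D1 (25.6 ± 3.86), Tapbp (18.7 ± 2.66), H2-T23 (7.31 ± 0.645), Tap2 (6.22 ± 1.01), Psmb8 (5.32 ± 0.410), Tap1 (3.89 ± 0.273) and Psmb9 (2.40 ± 0.402) to Nlrc5 (1.56 ± 0.348). Among these neighbours, H2-T23 and Tap2, and Tap2 and Psmb8, had overlapping retinae. In TKO the order ran from B2m (90.1 ± 10.0) through H2-K1 (19.3 ± 1.501), Tapbp (16.1 ± 3.34), H2-D1 (12.3 ± 0.233), Tap2 (2.90 ± 0.675), H2-T23 (2.70 ± 0.496), Psmb8 (1.91 ± 0.226), Tap1 (1.32 ± 0.133) and Psmb9 (0.603 ± 0.257) to Nlrc5 (0.481 ± 0.121). Here H2-K1 and Tapbp, Tap2 and H2-T23, and Psmb9 and Nlrc5 overlapped. Tapbp thus stood below H2-D1 in every DKO retina and above it in every TKO retina, with ranges of 17.1 to 21.7 against 22.2 to 29.8 in DKO and 13.0 to 19.7 against 12.1 to 12.6 in TKO.

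Within a genotype the members also differed between retinae. DKO replicate 3 was the highest DKO retina for 10 of 10 members, with a mean deviation of 0.19 log2 units from the DKO mean. Over all genes it was also the DKO retina least like the others. The share of all genes that were highest in it was not counted. TKO replicate 3 was the highest TKO retina for 8 members and TKO replicate 2 for the other 2, Tapbp and Psmb8. In TKO replicate 2 the members did not move together. Tapbp deviated from the TKO mean by 0.31 and Psmb8 by 0.17 log2 units, but Psmb9 by -0.64 and Tap2 by -0.34. Both of the third replicates were female, as was TKO replicate 2, which was the lowest TKO retina for 4 members. With sex as a term in the fit, the log2 fold changes of the members ranged from -2.09 (Psmb9) to -0.34 (Tapbp), and B2m stood at -1.60. Within the female retinae the log2 difference of B2m was -1.52 (2 TKO, 1 DKO) and within the male retinae it was -1.67 (1 TKO, 2 DKO).

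Outside the members, 65 of the 83 listed pathway genes in the table could be tested. Of these, 5 were called lower and 0 higher in TKO, where a call in edgeR needed an adjusted p of at most 0.05, a log2 fold change of 1 or more in size, and on average 10 or more normalized counts. DESeq2 gave the same counts, and at an unadjusted p below 0.05 in edgeR there were 18 lower and 2 higher. The share of all genes at that unadjusted p was not counted. Nothing is therefore read from the 18 and 2, or from such counts in the single lists. Among all genes, 4.38% were called lower and 1.97% higher. The 5 genes are 7.69% of the pathway genes tested, and their number fell to 2 without TKO replicate 2 or without DKO replicate 1 and to 3 without DKO replicate 2 or without DKO replicate 3. By the adjusted p alone, 7 pathway genes passed as lower and 1 as higher, against 9.2% and 7.35% of all genes.

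Of the other class I heavy chains, 9 of the 21 in the table were tested and 3 were called lower. H2-Q4, a nonclassical heavy chain, was counted at 294, 325 and 382 in TKO and at 893, 769 and 1062 in DKO. It fell in every TKO retina relative to DKO (log2 fold change -1.45, SE 0.145, adjusted p = 0.00464 in edgeR) and passed under all 13 alternative fits. H2-Q5, annotated as a polymorphic pseudogene, averaged 18.7 ± 4.26 in TKO and 69.8 ± 11.9 in DKO (-1.90, adjusted p = 0.00700), and H2-T10, also a polymorphic pseudogene, averaged 3.81 ± 2.66 and 17.3 ± 3.03 (-2.15, adjusted p = 0.0237). H2-T10 rests on 2 to 6 raw counts in TKO and lost its call without TKO replicate 2, DKO replicate 1 or DKO replicate 2, with adjusted p values of 0.0926, 0.0758 and 0.0869 in edgeR. H2-K2, a transcribed pseudogene beside H2-K1, went the other way (159 ± 32.7 against 82.9 ± 3.65, log2 fold change 0.94, adjusted p = 0.0146 in edgeR), below the fold needed for a call. Leaving out TKO replicate 2 gave a p of 0.0658, leaving out DKO replicate 1 gave 0.0607 and leaving out DKO replicate 2 gave 0.0643.

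The remaining heavy chains did not pass. H2-M3, which presents formylated peptides, stood at -0.64 (adjusted p = 0.0856), H2-M5 at -0.46 (adjusted p = 0.594), H2-T24 at 0.10 (adjusted p = 0.864), H2-Q2 at 0.34 (adjusted p = 0.771) and H2-Q10 at 0.34 (adjusted p = 0.845), all from edgeR. The other 12 had too few counts, and 8 of them, including H2-Q6, H2-Q7, H2-Q8 and H2-Q9, had 0 counts in all 6 retinae. A count of 0 here does not show that a gene was silent, since how reads of close copies were counted is not settled. Of the 100-base windows, 13% of H2-Q6 and 12% of H2-Q7 occur in another transcript. Near-identical copies bear on these values. Of the 100-base windows of H2-T10, 28.1% occur in another transcript, as do 14.1% of H2-Q4 and 14% of H2-Q5, against 0.957% of H2-K1, 3.59% of H2-D1, 3.15% of H2-T23 and none of B2m or Nlrc5. Counts were also summed over 10 heavy chain rows and fitted as 1 row. The rows were H2-K1, H2-D1, H2-T23, H2-Q4, H2-Q6, H2-Q7, H2-T10, H2-T22, H2-K2 and H2-L, without other tested genes such as H2-Q5 and H2-M3. The sum stood at 1713 ± 86.4 in TKO and 4149 ± 741 in DKO, a log2 difference of -1.28 (SE 0.128). That sum holds the members, so no test is given.

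Of 5 class I-like partners of B2m, 1 was called. Cd1d1, which presents lipids to natural killer T cells, was called lower (81.2 ± 12.9 against 177 ± 38.5, log2 fold change -1.12, adjusted p = 0.0123 in edgeR). It lost its call without TKO replicate 2, DKO replicate 1 or DKO replicate 2, at adjusted p values of 0.0590, 0.0542 and 0.0579 in edgeR. The other 4 did not pass. Cd1d2 was barely counted (0, 1 and 2 raw counts in TKO, 12, 2 and 7 in DKO, adjusted p = 0.138 in edgeR), and Mr1 (-0.33, adjusted p = 0.327), Fcgrt (-0.45, adjusted p = 0.260) and Hfe (-0.29, adjusted p = 0.370) had values below 0.

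In peptide loading and trimming, 0 of 11 genes were called by edgeR or DESeq2, and 3 had an unadjusted p below 0.05. Erap1, the aminopeptidase that trims peptides to class I length, averaged 306 ± 48.0 in TKO and 443 ± 17.2 in DKO and passed by the adjusted p alone (-0.53, adjusted p = 0.0252 in edgeR). That p rose above the threshold when TKO replicate 1 or 2 or DKO replicate 1 or 2 was left out, to between 0.0729 and 0.102. The general folding chaperones of the endoplasmic reticulum did not pass: Calr stood at 0.10 (adjusted p = 0.483), Canx at 0.14 (adjusted p = 0.274) and Pdia3 at -0.20 (adjusted p = 0.225) in edgeR, and the signs of Calr and Canx turned when only total counts were used. Tapbpl, a relative of tapasin that works without the transporter, stood at -0.36 (adjusted p = 0.171).

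Among 4 inducible proteasome parts, 0 were called by edgeR or DESeq2 and 3 had an unadjusted p below 0.05. Psmb10 averaged 167 ± 31.4 in TKO and 236 ± 45.9 in DKO (-0.50, adjusted p = 0.111 in edgeR). The activator subunits Psme1 and Psme2, which open the core, stood at -0.44 (adjusted p = 0.0592) and -0.35 (adjusted p = 0.0581), and Pomp, an assembly factor, at -0.01 (adjusted p = 0.943). Psme1 passed in 3 and Psme2 in 1 of the 13 alternative fits.

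Of 13 transcription factors of class I genes, 1 was called. Irf1, which binds the interferon-response core, was counted lower in TKO (153 ± 41.7) than in DKO (323 ± 69.6), with a log2 fold change of -1.08 (SE 0.230, adjusted p = 0.0181 in edgeR). This p was 0.0648 without TKO replicate 2 and 0.0582 without DKO replicate 1. Rfx5, part of the complex through which NLRC5 acts on class I promoters, stood at -0.01 (adjusted p = 0.962 in edgeR). Ciita, the class II counterpart of Nlrc5, stood at 0.05 (19.3 ± 6.55 against 18.6 ± 3.43 normalized counts, adjusted p = 0.939 in edgeR). Both are too close to 0 for a sign, which turned in some of the alternative fits.

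Interferon ligands were scarcely counted. Ifng had 0 counts in each TKO retina and 1, 0 and 1 in DKO, Ifnb1 had 1 count in 1 DKO retina, and the other 4 ligand genes listed had 0 counts throughout, which allows up to 3 counts in a retina by counting error alone. Of 9 receptor and kinase genes tested, 0 were called by edgeR or DESeq2 and 2 had an unadjusted p below 0.05. Ifnar2, a chain of the type I receptor, passed by the adjusted p alone (155 ± 31.5 against 255 ± 42.0, log2 fold change -0.72, adjusted p = 0.0355 in edgeR), and this p reached at most 0.105 over the left-out retinae, passing only without TKO replicate 3.

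Immune cell markers were examined beside the members. Of 13 microglia markers, 7 were called lower in TKO, against 4.38% of all genes. Among the 7 were Csf1r (-1.03, adjusted p = 0.0135) and C1qb (-1.17, adjusted p = 0.0202 in edgeR). Fcrls (-1.73, adjusted p = 0.00821) and Cx3cr1 (-1.09, adjusted p = 0.0311 in edgeR) were also called lower. P2ry12 (0.04, adjusted p = 0.945) and Tmem119 (-0.35, adjusted p = 0.470) did not pass. Leaving out TKO replicate 1 reduced the number called to 3, and leaving out TKO replicate 2 reduced it to 1. It was 2 when DKO replicate 1 was dropped and 1 when DKO replicate 2 was dropped. Their summed level was 160.1, 207 and 286 CPM in TKO and 435, 515 and 335 in DKO, and none of the 13 was at 0. The part of microglia in the lower class I level was not tested.

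Retina by retina, the sums of the members, the microglia markers and the gliosis markers kept the same order in TKO but not in DKO. In TKO all of these sums rose from replicate 1 through replicate 2 to replicate 3, with the members at 235, 272 and 282 CPM. DKO replicate 3 had the highest summed level of the members (713 CPM, against 564 and 600.5 in the other DKO retinae) and the lowest microglia sum of the DKO group. It had by far the highest sum of 7 gliosis markers, 1567 CPM against 598 and 451, while the TKO retinae had 170.1, 356 and 407. The largest part of that sum in each retina was Gfap, at 5595, 3948 and 11556 normalized counts in DKO and 1341, 2669 and 3640 in TKO. Its log2 fold change was -1.46 (adjusted p = 0.0566 in edgeR), and it was not called. Of the gliosis markers, 1 was called lower in TKO, Lcn2 (-4.86, adjusted p = 0.00733 in edgeR). Without DKO replicate 3 the log2 fold change of H2-K1 was -1.30 and that of B2m stayed between the bounds -1.61 and -1.46 found over all left-out retinae.

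**Figure D4:**
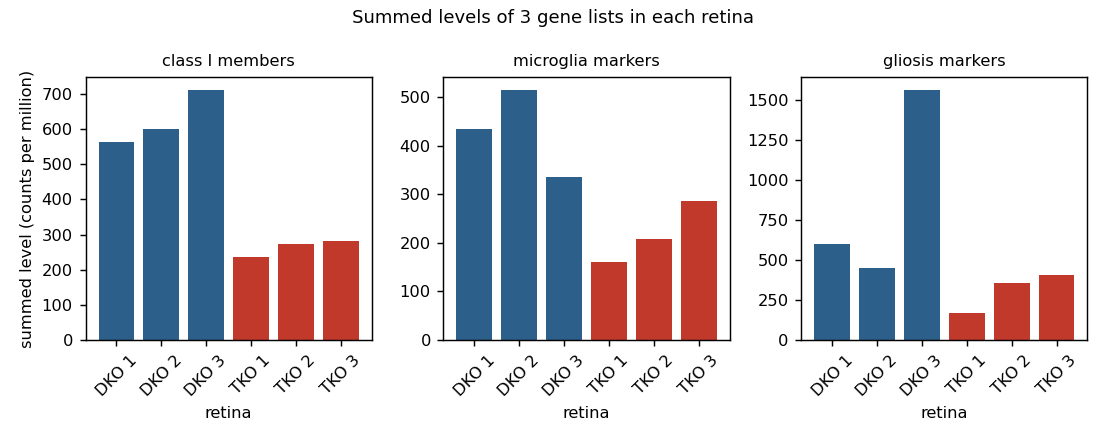
Summed level in CPM in each of the 6 retinae for the 10 members, 13 microglia markers and 7 gliosis markers, with DKO in blue and TKO in red. The members are highest in DKO replicate 3, where the microglia sum is 335 and the gliosis sum is 1567.

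Lymphocytes contributed few counts. The 11 T and NK cell markers summed to between 0.832 and 1.87 CPM in the 6 retinae, 2 of them were at 0 throughout, and 2 could be tested, of which 0 were called by edgeR or DESeq2 and 0 had an unadjusted p below 0.05. Of the other macrophage and monocyte markers, 1 of 5 tested was called lower by edgeR (Ms4a7, -3.001, adjusted p = 0.0203), and DESeq2 called 2. The p for Ms4a7 rose above the threshold without TKO replicate 1, TKO replicate 2 or DKO replicate 2, to at most 0.0848. Mrc1, a marker of resident macrophages, averaged 15.3 ± 17.1 in TKO and 72.9 ± 16.7 in DKO (-2.27, adjusted p = 0.0533 in edgeR), with groups that did not overlap, and Ccr2 had 0, 1 and 0 raw counts in TKO and 0, 13 and 38 in DKO. The list summed to between 23.7 and 27.7 CPM in TKO and between 26.1 and 36.2 in DKO. Most of that sum was Lyve1, and the other 5 markers summed to 0.272, 1.91 and 5.14 CPM in TKO and to 8.78, 11.5 and 15.1 in DKO. The part of these cells in the lower class I level was not tested. Of 8 endothelial markers, 0 were called by edgeR or DESeq2 and 1, Pecam1, had an unadjusted p below 0.05, being higher in TKO (0.87, adjusted p = 0.0336 in edgeR, and at most 0.125 with a retina left out). Their median log2 fold change was 0.35. The summed level overlapped between the genotypes (419 to 527 CPM against 436 to 558) and was mostly Kdr, and the other 7 markers summed to 103 to 111 CPM in TKO and 71.9 to 98.2 in DKO.

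The members lie mostly in 1 stretch of chromosome 17. From the start of Tapbp to the end of H2-T23 (chr17:33915899-36032855, GRCm38) there are 8 of the 10 members, and Tap1 and Psmb9 overlap head to head by 212 bases on opposite strands, so that reads from the overlap cannot be assigned without a strand setting. Psmb8 begins 495 bases after the end of Tap1 on the same strand. Of the 103 other genes of this interval that were tested, 10 were called lower (9.71%, against 4.38% of all genes) and 1 higher, and their median log2 fold change was -0.06. The 10 are the class II genes H2-Ab1, H2-Aa and H2-Eb1, the complement gene C4b, the microglia marker Aif1, the heavy chains H2-Q4 and H2-Q5, and Clic1, Tcf19 and Cchcr1. Their number was 3 without TKO replicate 1 or TKO replicate 2 and 4 without DKO replicate 2. These genes were grouped by position after their values had been seen.

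**Figure D5:**
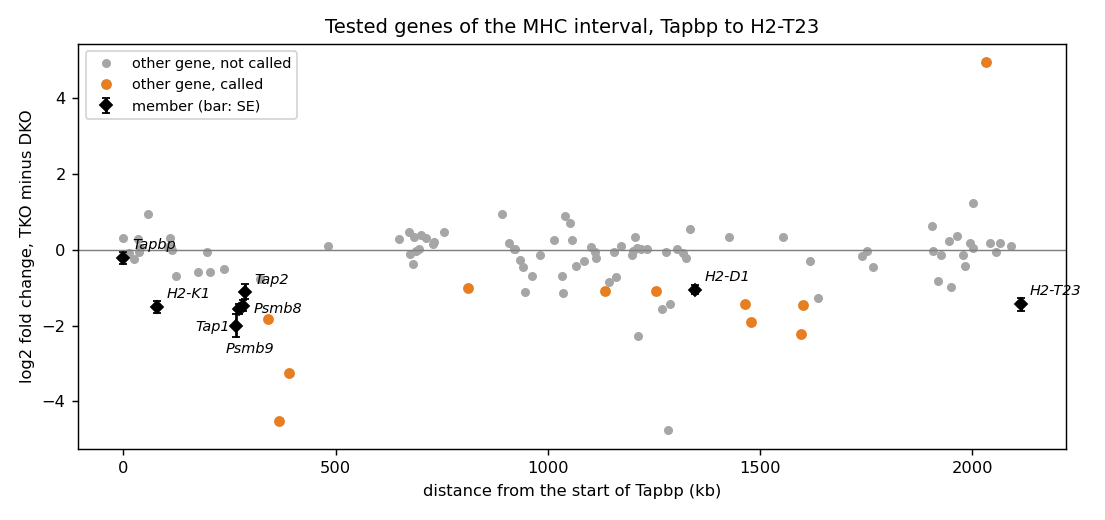
Log2 fold change of TKO relative to DKO against the distance from the start of Tapbp in kilobases, for 8 members (black diamonds, SE bars) and 103 other tested genes, with those called in orange. Members with values from -2.004 to -1.05 lie among genes whose median is -0.06, and Tapbp lies at -0.21.

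The pattern most like that of the members was sought among 14966 other genes that averaged 10 or more normalized counts, by Pearson correlation over the 6 retinae with the mean standardised level of the members. The 5 highest were Lilrb4 (r = 0.9994), an inhibitory receptor of myeloid cells, Cib1 (0.9979), Shisa5 (0.9978), H2-Q4 (0.9966) and C3 (0.9966), the central complement component. These correlations are descriptions over 6 retinae that fall into the genotypes. The raw counts of Lilrb4 were 0, 2 and 3 in the TKO retinae and 30, 33 and 59 in the DKO retinae. Its means were 1.93 ± 1.85 and 36.0 ± 12.9 normalized counts (SD, n = 3 each), so the size of its difference rests on few counts. C3 averaged 92.3 ± 33.1 in TKO and 607 ± 212 in DKO (log2 fold change -2.72), and in DKO replicate 3 it reached 850.5. Shisa5 (-0.58) and Cib1 (-0.45) followed the members over a narrower range. As these genes were picked for this profile, no test is given for them here.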

How the data were processed

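Retinal RNA from 3 TKO and 3 DKO mice was sequenced by the authors after preparation with a stranded mRNA kit, and the deposited table holds raw read counts per gene symbol. The study's methods name STAR, GRCm38 with an Ensembl annotation, up to 3 alignments per read and HTSeq, whereas the submitters' processing notes name TopHat2, featureCounts and DESeq2 with mm10, and the strand setting is not given in the sources used here. Reads shared by class I paralogs could therefore be assigned in more than 1 way. Groups were taken from the sample labels. The labels do not say whether the retinae of a group came from separate litters, so p-values measure only the spread between these samples, which may be partly technical. Depth was 10343907 to 14203098 counts per retina, and intervals and floors cover counting error only.

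Genes with at least 10 counts in all were tested (16904) with edgeR 4.0.16 (TMM, quasi-likelihood, Benjamini-Hochberg) in R 4.3.3. A gene was called at an adjusted p of at most 0.05, a log2 fold change of at least 1 in size and a mean count of at least 10. Normalized counts are counts divided by TMM-scaled library size. Lengths are unions of GENCODE exons over all transcripts of a gene, so levels per kilobase and ratios between genes depend on that choice. DESeq2 1.42.0, other scalings, filters and thresholds, a replicate block, left-out retinae and, added later, a sex term were alternatives. The test was checked on simulated data with a capped spread between replicates, so that check does not cover the full spread of these retinae. The members, lists and named genes (all members, all tested heavy chains, preset pathway genes, the leading called genes and markers, and the 5 closest patterns) were chosen with earlier results of these data known, and some named genes are not reported here.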

Additional observations from a re-analysis of the deposited data

How the results depend on the processing

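The 10 members kept the same direction in every alternative run, and only scaling by total counts moved any of them beyond the spread between replicates (B2m -1.69, Tap1 -1.71, H2-D1 -1.21 and Psmb8 -1.63 on the log2 scale). That scaling moved the median of all genes to -0.17, from -0.01, and changed the split of calls to 983 lower and 247 higher, from 741 and 333.

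Same-numbered retinae share only a number: their deviations from the group means correlated at 0.0663, -0.0552 and -0.2285, and 1 of 6 retinae correlated best with its own number. A fit with a replicate block called 75 genes lower and 15 higher, with 1 pathway gene and 0 microglia markers lower. At the adjusted p alone, 1556 genes were lower and 1243 higher, with 1 pathway gene higher, and at an adjusted p of at most 0.01, 292 were lower and 129 higher, with 2 pathway genes lower. With a sex term, 4 microglia markers were called lower. Leaving out 1 retina at a time gave 312 to 1024 genes lower, 121 to 476 higher, 2 to 5 pathway genes lower, 0 to 1 higher and 1 to 8 microglia markers lower. The cause of these shifts was not tested, beyond fewer samples in each fit.

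Signs turned only for genes that did not pass. With total counts, Psmb5 stood at -0.018, Psmb6 at -0.11, Ciita at -0.12, Calr at -0.061, Canx at -0.020, H2-T24 at -0.068 and Rbl1 at -0.036. Over left-out retinae, Psmb6 ran from -0.025 to 0.10, Ciita from -0.24 to 0.24, Rfx5 from -0.099 to 0.091, H2-Q2 from -0.11 to 0.76, H2-Q10 from -0.22 to 0.39, H2-T24 from -0.43 to 0.33 and Rbl1 from -0.15 to 0.36. Counting motifs in 100 bases before the start left the pair of boxes in B2m and H2-K1, and no member with the interferon-response core or the kappaB letters. With 3 retinae in each group and few counts, Psmb9 and Nlrc5 have the largest standard errors of the members (0.310 and 0.248), and pathway genes with only a few counts, such as H2-Q10 and H2-Q2, have larger ones.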
